A study of Mus musculus with 3 samples.

Results

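Genes of the two-cell-like state were read from RNA-seq of E14 mouse embryonic stem cells (ESCs). They are the rows named *Dux*, *Zscan4c*, *Zscan4d*, *Zscan4f*, *Zfp352*, *Tcstv3*, *Arg2* and *Eif1a* in both deposited tables, 8 of 23953 genes. The series holds 3 libraries, 1 for each condition, and they are named by their labels. WT is the wild-type library. Tam is the library of *Oct4* DE (−/−) cells, in which loxP sites flank the distal enhancer (DE) of *Oct4*, after 4-OH tamoxifen for 48 h. DoxTam is the library of the same kind of cells after 4-OH tamoxifen and doxycycline for 48 h. Tamoxifen activates CreERT2, a recombinase that deletes the loxP-flanked enhancer, and doxycycline induces a mouse *Oct4* transgene. All cells were E14 and were grown with LIF, and the labels of all 3 libraries, WT included, list a doxycycline-inducible and a tamoxifen-inducible construct. The lines were expanded from clones, and the number of clones behind the libraries and the origin of WT (parental or untreated floxed cells) are not stated.

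In the mouse embryo the main wave of transcription from the zygotic genome takes place at the 2-cell stage. A small and changing fraction of ESCs in culture passes through a state in which genes of that stage are transcribed. *Dux* encodes a double homeodomain transcription factor that switches on many of these genes. *Zscan4c*, *Zscan4d* and *Zscan4f* belong to a cluster of nearly identical genes for proteins with a SCAN domain and zinc fingers, which act in telomere maintenance. *Zfp352* encodes a zinc finger protein of the early embryo, and *Tcstv3* is a variable gene of the same stage. *Arg2* encodes the mitochondrial arginase, and *Eif1a* encodes a translation initiation factor, and both also have uses outside this state. In a bulk library, fewer cells in the state and less RNA per such cell cannot be told apart.

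*Pou5f1*, which encodes *Oct4*, served as a check of the labels. WT held 664 FPKM, Tam 529 FPKM and DoxTam 458 FPKM of it (FPKM are fragments per kilobase of transcript, scaled to the mapped fragments of the library). The library labelled for the transgene thus held the lowest *Pou5f1*, which goes against the labels. Tam, the library labelled for deletion of the enhancer without the transgene, kept a level within 1.5-fold of WT (log2 fold -0.33). *Cdx2*, a trophectoderm gene, was highest in Tam, at 2.82 FPKM against 0.639 FPKM in WT and 0.128 FPKM in DoxTam. Every direction below is one between a library labelled Tam, DoxTam or WT. The ESC identity was plain in all of them, since 8 of 8 ESC marker genes, *Sox2* and *Nanog* among them, were at 1 FPKM or more in each library, with summed levels of 2832 FPKM in WT, 2589 FPKM in Tam and 2588 FPKM in DoxTam. Tam stood apart at low levels. Of 1117 olfactory receptor genes, 70.7% were above 0 in Tam against 34.0% in WT and 17.0% in DoxTam, and their 95th percentile was 0.794 FPKM in Tam, 0.251 FPKM in WT and 0.298 FPKM in DoxTam. The depth, estimated from the FPKM of a single fragment, was about 15100000 fragments in WT, 6900000 in Tam and 8400000 in DoxTam, and it is approximate.

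Most of the 8 genes were transcribed at low levels, and *Eif1a* was not. Across the libraries *Eif1a* lay between 42.1 and 74.2 FPKM, *Zscan4d* between 4.71 and 6.30 FPKM, *Zscan4c* between 2.96 and 5.47 FPKM, and *Zscan4f* between 1.89 and 3.34 FPKM. *Zfp352*, *Arg2* and *Dux* lay between 0.309 and 2.04 FPKM. FPKM is a level per length, so genes may be set in order by it. In WT that order was *Eif1a*, *Zscan4d*, *Zscan4c*, *Zscan4f*, *Zfp352*, *Arg2* and *Dux*. In Tam *Arg2* came before *Zscan4f*, and *Dux* before *Zfp352*. With 1 library per condition there is no spread between replicates, so it cannot be said whether neighbours in these orders differ beyond it.

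**Figure D1:**
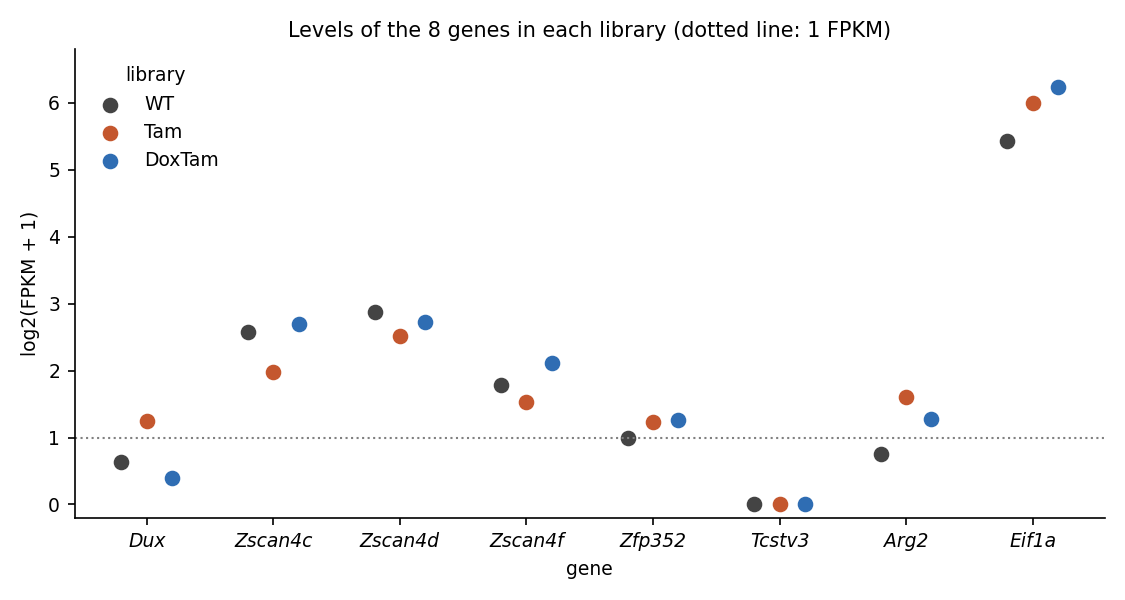
Levels of the 8 genes, as log2(FPKM + 1), in the WT (grey), Tam (orange) and DoxTam (blue) libraries, with 1 point per library and a dotted line at 1 FPKM. *Eif1a* stands above all other genes, the 3 *Zscan4* genes are lowest in Tam, and *Tcstv3* is listed at 0 in each library.

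The *Zscan4* genes share much of their sequence, which sets how far their rows can be read apart. In mm9, the build of the deposited tables, *Zscan4c* is at chr7:11591094-11595896, *Zscan4d* at chr7:11746992-11751497 and *Zscan4f* at chr7:11983264-11987667. Their coding sequences, taken from the GENCODE annotation of that build, are 1521 bases long. *Zscan4c* and *Zscan4f* differed at 6 of these bases, and their longest identical run was 407 bases. *Zscan4d* differed from each of the other two at 35 bases, with longest identical runs of 246 bases against *Zscan4c* and 288 bases against *Zscan4f*. Bases 1031 to 1120, counted from the first base of the start codon, are the 90-base stretch shown here because it holds 3 of the 6 differences between *Zscan4c* and *Zscan4f*. Capitals mark the 8 positions at which the copies are not all alike.
Zscan4c: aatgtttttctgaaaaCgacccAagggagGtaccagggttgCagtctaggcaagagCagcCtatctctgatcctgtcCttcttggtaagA
Zscan4d: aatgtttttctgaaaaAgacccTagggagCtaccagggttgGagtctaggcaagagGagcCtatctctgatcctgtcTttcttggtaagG
Zscan4f: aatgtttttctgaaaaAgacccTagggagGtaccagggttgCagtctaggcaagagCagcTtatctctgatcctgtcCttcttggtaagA
Each of the coding sequences matched 9 other places in the genome at 95% identity or more over at least 100 bases. The genes of the tables found there, by the last base of each place, were the other copies of *Zscan4a* to *Zscan4f*. A read from an identical run fits several rows, and the way such reads were shared out is not stated. Levels of single copies are therefore uncertain, and the sum over copies is given beside them.

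**Figure D2:**
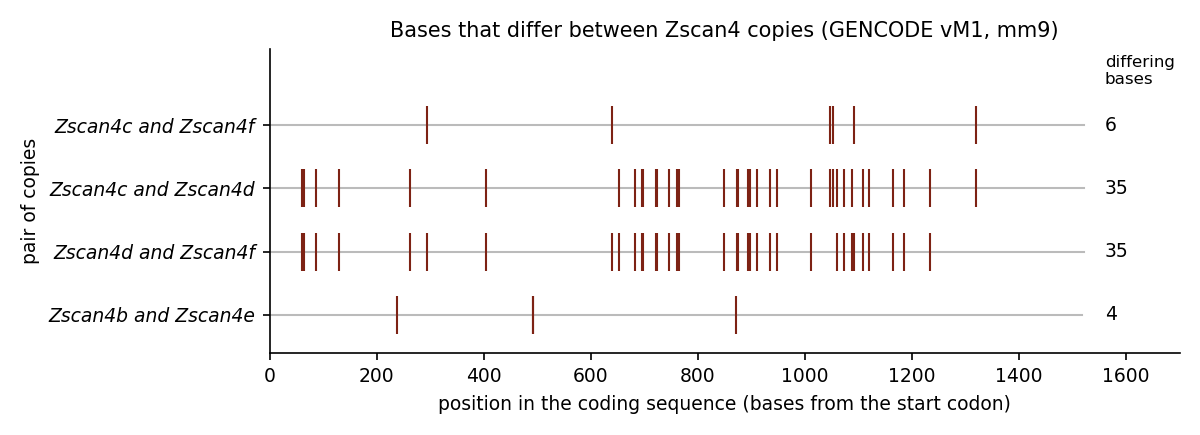
Positions (bases from the start codon) at which the coding sequences of 4 pairs of *Zscan4* copies differ, 1 line per pair and 1 tick per differing base, with the number of differing bases at the right. *Zscan4c* and *Zscan4f* differ at 6 bases and *Zscan4b* and *Zscan4e* at 4, while *Zscan4d* differs from *Zscan4c* and from *Zscan4f* at 35 each.

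The sequences before the start sites of the copies are alike as well, though the annotated starts lie at different positions in them. RefSeq promoters (build GRCm38.p6, which is not the build of the tables) were at hand for 4 of the 8 genes, *Zscan4c*, *Zscan4d*, *Zscan4f* and *Zfp352*. Over the 250 bases before the start, shifted to match, *Zscan4c* and *Zscan4f* differed at 1 of 227 shared bases, *Zscan4c* and *Zscan4d* at 7 of 239, and *Zscan4d* and *Zscan4f* at 7 of 216. The letters TATAAA, the core of a TATA box, were searched on both strands. They were found once in each of the *Zscan4* promoters, 54 bases before the start in *Zscan4c*, 65 in *Zscan4d* and 31 in *Zscan4f*, and in no place in that of *Zfp352*. Of 32536 RefSeq promoter windows of the same length, 12.31% hold these letters. The promoters of *Zscan4c* (chr7:11005495-11005744, plus strand) and *Zscan4d* (chr7:11166149-11166398, minus strand) are printed with the letters in capitals, to show how nearly the copies match around them.
Zscan4c promoter: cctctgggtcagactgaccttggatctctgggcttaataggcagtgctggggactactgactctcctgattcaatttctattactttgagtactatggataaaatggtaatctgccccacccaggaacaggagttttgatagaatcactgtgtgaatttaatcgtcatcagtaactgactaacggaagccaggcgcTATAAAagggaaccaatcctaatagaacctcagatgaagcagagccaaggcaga
Zscan4d promoter: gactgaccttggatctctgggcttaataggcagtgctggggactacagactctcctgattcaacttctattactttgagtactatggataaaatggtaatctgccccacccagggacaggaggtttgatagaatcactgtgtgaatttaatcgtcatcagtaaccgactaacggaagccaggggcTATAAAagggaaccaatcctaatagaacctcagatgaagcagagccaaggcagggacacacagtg

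Differences between libraries were taken as log2 folds, log2((FPKM + 1)/(FPKM + 1)), which understate changes of genes near 1 FPKM. A gene was counted as measured when either library had 1 FPKM or more, and as higher or lower at 1.5-fold. In Tam against WT, 7 of the 8 genes were measured, of which 2 (*Dux* and *Arg2*) were higher and 1 (*Zscan4c*) was lower. Of all 12705 measured genes, 6.98% were higher and 3.59% were lower. *Dux* and *Arg2* were measured only through Tam, the library in which they were higher. Of 2403 genes whose higher level was 1 to 3 FPKM, 12.1% were higher in Tam. In DoxTam against WT, 6 were measured, with 1 higher (*Eif1a*) and 0 lower, against 4.12% higher and 5.78% lower of 12384 genes. In DoxTam against Tam, 7 were measured, with 2 higher (*Zscan4c* and *Zscan4f*) and 1 lower (*Dux*), against 2.09% higher and 5.74% lower of 12647 genes. *Dux* was again measured only through Tam, and 13.4% of 2426 genes at 1 to 3 FPKM were lower in DoxTam. The median log2 fold of the measured genes was 0.25, 0.30 and 0.21 in these comparisons, beside 0.021, -0.0028 and -0.020 for all measured genes. In Tam against WT that median is the fold of *Zfp352*, which, like *Dux* and *Arg2*, was measured only through Tam. In DoxTam against WT, *Zfp352* and *Arg2* were measured only through DoxTam. The *Zscan4* rows share reads and were below WT in Tam, so the medians do not measure a shift of the set. The 3 comparisons share their libraries, so their values are not independent of each other, and none has a replicate check or a test.

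**Figure D3:**
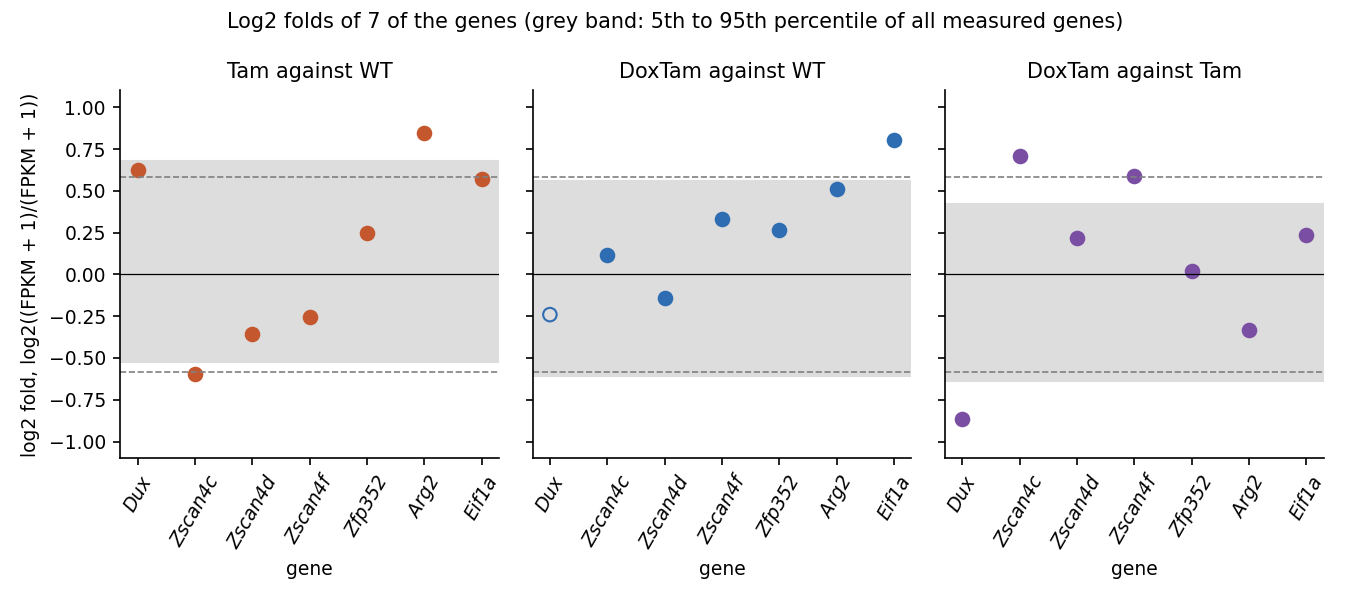
Log2 folds of 7 of the genes in the 3 comparisons of libraries, with dashed lines at 1.5-fold and a grey band from the 5th to the 95th percentile of all measured genes. The open circle is *Dux* in DoxTam against WT, where both levels were below 1 FPKM, and *Tcstv3*, listed at 0, is left out. *Arg2* lies above the band in Tam against WT, *Eif1a* in DoxTam against WT, and *Zscan4c* and *Zscan4f* in DoxTam against Tam, while *Zscan4c* lies below it in Tam against WT and *Dux* in DoxTam against Tam.

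*Dux*, the transcription factor at the head of this program, was at 0.547 FPKM in WT, 1.38 FPKM in Tam and 0.309 FPKM in DoxTam. Tam was the only library of the 3 above 1 FPKM. The log2 fold was 0.62 in Tam against WT and -0.86 in DoxTam against Tam. These levels stand for about 15, 17 and 5 fragments, so that WT and Tam held like numbers of fragments at different depths. The FPKM ratio of Tam over WT was 2.53 (95% exact binomial interval 1.17 to 5.37), and that of DoxTam over Tam was 0.224 (0.0690 to 0.676). All intervals of this kind rest on the estimated depths and cover counting error only, not the spread between cultures. Olfactory receptor genes moved the same way, with 2.78% of them at 1 FPKM or more in Tam, 0.627% in WT and 0.716% in DoxTam, and of all genes whose higher level was 1 to 3 FPKM, 12.1% were higher in Tam than in WT and 13.4% were lower in DoxTam than in Tam. The part of this low-level difference in the *Dux* values was not tested.

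The row named *Dux* is at chr10:57693399-57695423. The GENCODE annotation of the same build has another copy under this name, at chr10:57685047-57688454 on the minus strand, and a gene named *Gm10807* overlaps the row. The interval of the row matched 2 other places in the genome, where matches within 2500 bases of each other were taken as 1 place. This is therefore not a count of *Dux* copies. No gene of the tables covered the last base of these places, the only base checked. *Dux* is a tandem repeat gene, and its level here is that of a row to which reads of other copies could also map.

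*Zscan4c* was at 4.98 FPKM in WT, 2.96 FPKM in Tam and 5.47 FPKM in DoxTam, with log2 folds of -0.60 in Tam against WT, 0.11 in DoxTam against WT and 0.71 in DoxTam against Tam. *Zscan4d* was at 6.30, 4.71 and 5.63 FPKM in the same order, and none of its log2 folds (-0.36, -0.14 and 0.21) reached 1.5-fold. *Zscan4f* was at 2.45, 1.89 and 3.34 FPKM, with log2 folds of -0.26, 0.33 and 0.59. Tam was the lowest library for each of these copies. DoxTam was above WT for *Zscan4c* and *Zscan4f* and below it for *Zscan4d*. *Zscan4f* in DoxTam against Tam lay just past the 1.5-fold line, at 0.587 on the log2 scale against 0.585. With the trend of folds over GC content removed, the log2 folds of *Zscan4c*, *Zscan4d* and *Zscan4f* were -0.76, -0.51 and -0.43 in Tam against WT and 0.61, 0.12 and 0.48 in DoxTam against Tam, so that *Zscan4f* fell short of the line.

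Summed over *Zscan4c*, *Zscan4d* and *Zscan4f*, the level was 13.7 FPKM in WT, 9.56 FPKM in Tam and 14.4 FPKM in DoxTam. The log2 fold of the sum was -0.48 in Tam against WT, 0.067 in DoxTam against WT and 0.55 in DoxTam against Tam, so on this scale, with the pseudocount of 1 FPKM, no comparison of the sum reached 1.5-fold. The sum stands for about 413, 130 and 242 fragments. Its FPKM ratio of Tam over WT was 0.696 (95% exact binomial interval 0.565 to 0.846), that of DoxTam over WT was 1.05 (0.892 to 1.23), and that of DoxTam over Tam, without a pseudocount, was 1.51 (1.22 to 1.89). *Zscan4c*, *Zscan4d* and *Zscan4f* were lowest in Tam, where *Dux* and the share of olfactory receptor genes at 1 FPKM or more were highest. The part of the low-level difference of Tam in the *Zscan4* values was not tested.

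The other copies of the cluster, *Zscan4a*, *Zscan4b* and *Zscan4e*, bring the sum over the 6 copies to 22.1 FPKM in WT, 17.4 FPKM in Tam and 26.6 FPKM in DoxTam, with log2 folds of -0.33, 0.26 and 0.58. *Zscan4d* held 28.5% of this sum in WT, 27.0% in Tam and 21.1% in DoxTam, and *Zscan4c* held 22.6%, 17.0% and 20.6%. *Zscan4a* was at 4.28, 4.69 and 4.85 FPKM, with no fold past the line. *Zscan4e* was at 2.33, 2.52 and 5.18 FPKM and was higher in DoxTam than in WT (log2 fold 0.89) and Tam (0.81). *Zscan4b* was at 1.75, 0.663 and 2.13 FPKM and was lower in Tam than in WT (-0.72) and higher in DoxTam than in Tam (0.91). *Zscan4b* and *Zscan4e* differ at 4 of 1518 coding bases, so their sum is the safer value, 4.07 FPKM in WT, 3.18 FPKM in Tam and 7.31 FPKM in DoxTam (log2 folds -0.28, 0.71 and 0.99).

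**Figure D4:**
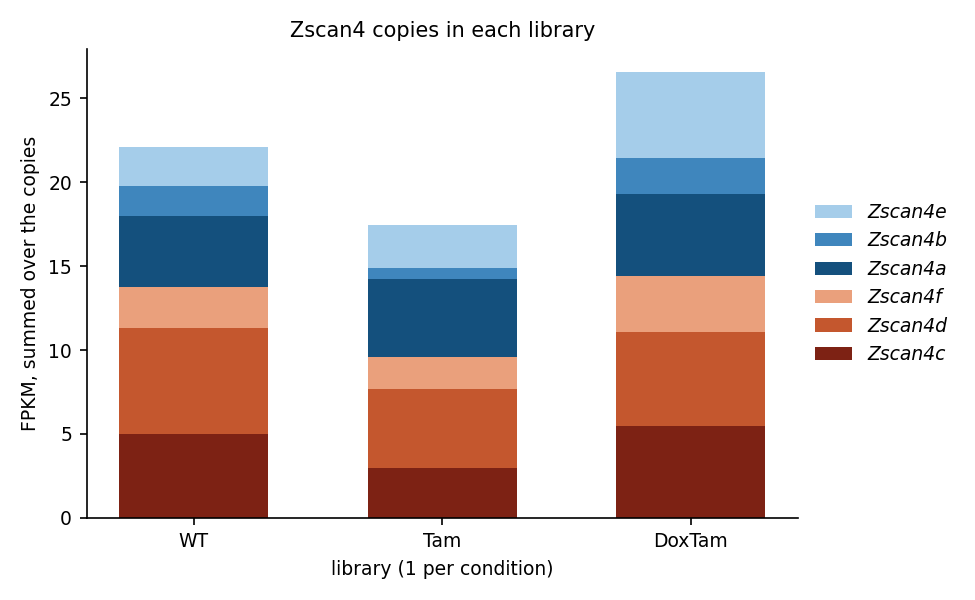
FPKM of the 6 *Zscan4* copies, stacked, in the WT, Tam and DoxTam libraries, with *Zscan4c*, *Zscan4d* and *Zscan4f* in reds and *Zscan4a*, *Zscan4b* and *Zscan4e* in blues. The total is 22.1 FPKM in WT, 17.4 FPKM in Tam and 26.6 FPKM in DoxTam.

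*Zfp352*, at chr4:89885511-89892378, was at 0.986 FPKM in WT, 1.35 FPKM in Tam and 1.39 FPKM in DoxTam. Its log2 folds of 0.25, 0.27 and 0.02 stayed within 1.5-fold. About 31, 19 and 24 fragments lie behind these levels, and the FPKM ratio over WT was 1.37 for Tam (95% exact binomial interval 0.720 to 2.47) and 1.41 for DoxTam (0.779 to 2.44). A difference of this size was not detectable at this depth. Its coding sequence matched 1 other place in the genome. No gene of the tables covered the last base of that place, the only base checked.

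*Tcstv3* was listed at 0 in each library. Its row lies on a sequence with no place on a chromosome (chrUn_random, bases 3053 to 4452), and all 24 genes of the tables on that sequence, *Tcstv1* and *AF067063* among them, were listed at 0 in each library. The 0 is therefore no measure of the gene, and no fold is given.

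*Arg2*, the mitochondrial arginase that turns arginine into ornithine, was at 0.691 FPKM in WT, 2.04 FPKM in Tam and 1.41 FPKM in DoxTam. WT was the lowest library. The log2 fold was 0.85 in Tam against WT and 0.51 in DoxTam against WT, and only the first passed 1.5-fold. About 13, 17 and 15 fragments lie behind these levels. The FPKM ratio was 2.95 for Tam over WT (95% exact binomial interval 1.32 to 6.45) and 2.04 for DoxTam over WT (0.918 to 4.72). The coding sequence of *Arg2* matched no other place in the genome. Its row, chr12:80231775-80273445, has the same interval as that of *Vti1b*, a gene of vesicle fusion on the opposite strand at 26.3 FPKM in WT, 23.6 FPKM in Tam and 27.3 FPKM in DoxTam, and in GENCODE the ends of both genes overlap. The library kit keeps the strand, but use of the strand in counting is not stated, so that *Arg2* levels are uncertain.

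*Eif1a* was at 42.1 FPKM in WT, 62.9 FPKM in Tam and 74.2 FPKM in DoxTam. It is the best measured of the 8 genes, with about 1702, 1155 and 1675 fragments. Both libraries of treated cells were above WT, and DoxTam was above Tam. The log2 fold was 0.57 in Tam against WT, just short of the 1.5-fold line at 0.585, 0.80 in DoxTam against WT and 0.24 in DoxTam against Tam. The FPKM ratio was 1.49 for Tam over WT (95% exact binomial interval 1.39 to 1.61), 1.76 for DoxTam over WT (1.65 to 1.89) and 1.18 for DoxTam over Tam (1.09 to 1.27). GC content moved with this difference. The *Eif1a* transcript has 39.8% GC, and 442 measured genes within 1 percentage point of it had a median log2 fold of 0.36 in DoxTam against WT, with 13.6% of them higher at 1.5-fold. With the trend of folds over GC content removed, the log2 fold of *Eif1a* was 0.45 in DoxTam against WT and 0.33 in Tam against WT, and neither reached 1.5-fold.

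*Eif1a* (chr18:46757358-46769879) has copies on chromosome 12 that are genes of the two-cell-like state. Its coding sequence matched 2 places there, in the rows of *Gm8300* and of a group that includes *Gm5039* and *Gm5662*, which share an interval. *Gm10436*, *Gm21319* and *Gm7104* also have rows at these places and were left out of the sum given here. Summed over *Gm8300*, *Gm5039* and *Gm5662*, the level was 11.0 FPKM in WT, 8.17 FPKM in Tam and 12.6 FPKM in DoxTam (log2 folds -0.38, 0.18 and 0.56). This sum was lowest in Tam, as the sums of the *Zscan4* genes were, whereas *Eif1a* was lowest in WT. *Gm5039* and *Gm5662* were each lowest in Tam. *Gm8300* was lowest in WT, at 2.44 FPKM against 2.69 FPKM in Tam and 3.96 FPKM in DoxTam. *Eif1ax*, the X-linked gene of the same factor, chosen after its values were seen, was at 82.8, 75.7 and 92.9 FPKM, with log2 folds of -0.13, 0.16 and 0.29.

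Further genes of the two-cell-like state were taken from a list of 54, of which 45 had a row. Of these, 9 were listed at 0 in each library and 18 reached 1 FPKM in at least 1. In Tam against WT, 16 were measured, of which 0 were higher and 2 were lower, *Usp17le* (-1.01) and *Zscan4b* (-0.72). Of all measured genes, 6.98% were higher and 3.59% lower. *Zscan4b* was measured here only through WT, the library in which it was higher. Of 2403 genes whose higher level was 1 to 3 FPKM, 3.75% were lower in Tam. In DoxTam against WT, 17 were measured, with 1 higher, *Zscan4e* (0.89), and 0 lower, beside 4.12% and 5.78% of all genes. In DoxTam against Tam, 17 were measured, with 6 higher and 0 lower, beside 2.09% and 5.74% of all genes. The 6 were *Zscan4b* (0.91), *Tdpoz4* (0.82), *Zscan4e* (0.81), *Gm5039* (0.65), *Usp17le* (0.64) and *Gm2022* (0.63). Of these, *Zscan4b* and *Tdpoz4* were measured only through DoxTam, the library in which they were higher. Among 2426 genes whose higher level was 1 to 3 FPKM, 3.42% were higher in DoxTam than in Tam. The median log2 fold was -0.22, 0.19 and 0.41 in the 3 comparisons. Close copies share reads here too, so these genes are fewer separate measurements than their number says.

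*Usp17le*, a deubiquitinase gene of a family of copies, had the highest level of the list, 7.41 FPKM in WT, 3.17 FPKM in Tam and 5.49 FPKM in DoxTam. Summed over *Usp17la* to *Usp17le*, the level was 18.4, 12.8 and 15.5 FPKM (log2 folds -0.49, -0.24 and 0.25). The sum was lowest in Tam and below WT in DoxTam, and *Usp17lb*, *Usp17lc* and *Usp17le* were each lowest in Tam. *Usp17la*, at 1.97, 2.05 and 2.41 FPKM, was lowest in WT, and *Usp17ld*, at 1.69, 1.78 and 1.38 FPKM, in DoxTam. *Tdpoz4*, a gene for a protein with TRAF and POZ domains, was at 0.748, 0.448 and 1.56 FPKM. *Gm2022* was at 3.58, 2.48 and 4.38 FPKM, and *Gm5039* at 3.84, 2.68 and 4.77 FPKM. *Zfp750*, at 4.59, 3.43 and 5.21 FPKM, lies in an interval shared with an overlapping gene and is uncertain.

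**Figure D5:**
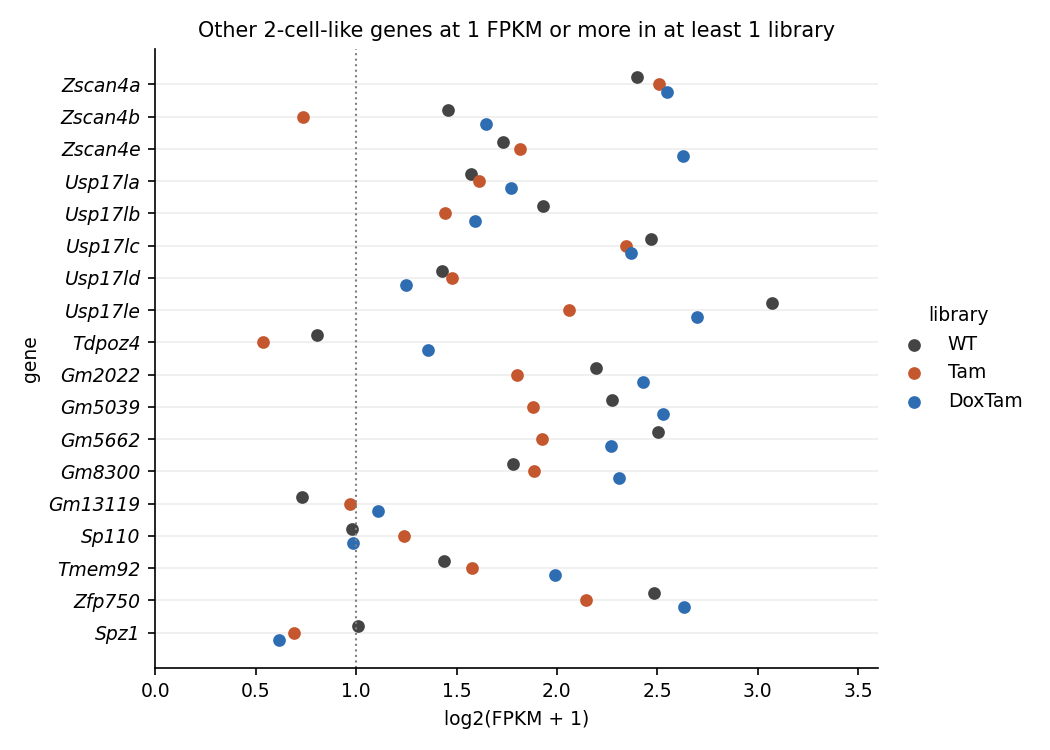
Levels, as log2(FPKM + 1), of the 18 further genes of the two-cell-like state that reach 1 FPKM in any library, with 1 point each for the WT (grey), Tam (orange) and DoxTam (blue) libraries and a dotted line at 1 FPKM. *Usp17le*, *Zscan4b* and *Gm2022* are lowest in Tam, and *Zscan4e* is highest in DoxTam.

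Activators of the state did not pass 1.5-fold in any comparison, with 0 of 7 measured genes higher or lower in each. Between 2.09% and 6.98% of all measured genes were called in each direction and comparison, so a count of 0 among so few genes does not set them apart. *Dppa2* and *Dppa4*, which act upstream of *Dux*, were at 46.9, 41.2 and 50.7 FPKM and at 86.5, 85.0 and 115 FPKM in WT, Tam and DoxTam. *Trp53*, the gene of p53, was at 114, 104 and 104 FPKM. All of them stood far above *Dux* in level per length.

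Repressors of the state held 29 measured genes of 30. In Tam against WT 0 were higher or lower, and likewise in DoxTam against Tam. In DoxTam against WT 2 were higher, *Rnf2* (0.77), a ubiquitin ligase of Polycomb complexes, and *Zmym2* (0.60), a zinc finger protein that works with histone demethylase and deacetylase complexes. These 2 of 29 stand beside the 4.12% higher of all measured genes. *Rnf2* was at 32.0 FPKM in WT, 46.9 FPKM in Tam and 55.3 FPKM in DoxTam, and *Zmym2* at 21.6, 24.0 and 33.4 FPKM. Both transcripts are low in GC (39.1% and 40.7%), as *Eif1a* is, and 13.6% of the genes with a GC content near that of *Eif1a* were higher in this comparison. The repressors with the highest levels were *Trim28*, the corepressor of KRAB zinc finger proteins, at 468, 399 and 402 FPKM, *Ncl*, the gene of nucleolin, at 233, 175 and 162 FPKM, and *Rif1* at 117, 146 and 154 FPKM. The repressors' median log2 fold was -0.076, -0.050 and 0.022.

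Partners of *Eif1a* and *Arg2* in translation initiation and polyamine synthesis held 11 measured genes, with 0 higher and 0 lower in each comparison, beside the same shares of all genes. *Eif2s2*, a subunit of the factor that brings the initiator tRNA, was at 221, 300 and 275 FPKM. *Odc1*, the ornithine decarboxylase, was at 114, 81.5 and 103 FPKM, and *Eif1*, which acts in start codon choice beside *Eif1a*, at 95.4, 71.3 and 75.5 FPKM.

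Markers of other cell types were low in part and moved between libraries. Of 8 trophectoderm markers, 3 were at 1 FPKM or more in WT, 5 in Tam and 3 in DoxTam, none was at 0, and their summed level was 21.1, 29.9 and 25.3 FPKM. *Gata3*, a transcription factor of trophectoderm, was at 0.0980, 1.77 and 0.213 FPKM, highest in Tam as *Cdx2* and *Dux* were. *Eomes* was higher in DoxTam than in WT, at 5.43 against 2.91 FPKM. *Krt18* and *Krt8*, keratins of that lineage, held most of the sum, at 10.8, 13.5 and 10.6 FPKM and at 5.11, 5.98 and 7.25 FPKM. Of 8 primitive endoderm markers, 2, 2 and 1 were at 1 FPKM or more, none was at 0, and the sum was 15.8, 14.0 and 8.34 FPKM, mostly from *Col4a1*. Of 8 fibroblast markers, *Thy1* alone reached 1 FPKM, *Lum* and *Dcn* were at 0 in WT and DoxTam, *Col3a1* was at 0 in WT and *Postn* in DoxTam, and the sum was 5.87, 3.80 and 3.36 FPKM. The part of other cell types in the values of the 8 genes was not tested.

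The genes with the folds most like those of the summed *Zscan4* genes were found by Euclidean distance over a pair of log2 folds, Tam against WT and DoxTam against WT, from 3 libraries. The nearest were *Ddx4*, a germ cell RNA helicase gene, at 12.3, 8.40 and 12.9 FPKM in WT, Tam and DoxTam, *Xkr5* at 1.88, 1.09 and 2.04 FPKM, *Slc5a5*, the iodide transporter gene, at 1.23, 0.567 and 1.37 FPKM, *Tefm* at 6.37, 4.39 and 6.60 FPKM, and *4930558J18Rik* at 1.64, 0.874 and 1.83 FPKM. Their distances were 0.015 to 0.038 on the log2 scale. With 58 of 12679 genes within 0.1 of the *Zscan4* sum, this pattern over 3 libraries is one that many genes have.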

How the data were processed

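RNA-seq was analysed in 3 libraries, 1 per condition, grouped by the submitters' labels. The authors deposited 2 tables, each with FPKM values of WT and of 1 treated library, made with TopHat, Bowtie and Cufflinks 2.0.0 on mm9 per the submitters' processing notes. The gene annotation and the handling of reads that map to several places are not given in the sources used here. FPKM values were used as deposited. The deposited fold change, test statistic, p-value, q-value, status and significance columns hold the authors' own comparisons and were not used. Of the gene names, 27 differed between the tables and were matched by position in the table and genome interval, and 2 WT levels differed by over 1%. The WT level of the Tam table was used.

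The 8 genes and the lists were chosen with earlier results of these data known, and a list's counts are no independent support. Named genes are the 8, per list the 3 with the highest level in any library and those that reached 1.5-fold in any comparison (up to 6), the 5 nearest genes to the *Zscan4* sum, and *Pou5f1*. With 1 library per condition no test was made. Depth was estimated as the inverse of the median FPKM times kilobases (length less 200 bases) among single-fragment values. Its precision limits low genes, and intervals (exact binomial, 95%) cover counting error only. Identity of copies was found with BLAST 2.17.0 against mm9 and from GENCODE coding sequences, promoters came from RefSeq (GRCm38.p6), and lowess (span 0.2, statsmodels 0.14.6) was used to take out the trend over GC content. Other steps used Python 3.11.15 with pandas 2.3.3. The steps were tested on simulated data. There were 10 alternatives, covering pseudocount, filter, fold, scaling, GC trend and summed copies.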

Additional observations from a re-analysis of the deposited data

How the results depend on the processing

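With 1 library per condition no result has a test, and no replicate could be left out. No paired analysis was possible because the groups share fewer than 2 replicate numbers. Low levels and shared copies are the main limits. Of the log2 folds of the 8 genes under 10 alternatives, 159 kept their side of the line, 16 fell short of it and 4 newly reached it, and none of those past the line changed direction. Folds near 0 changed sign for *Zfp352* in DoxTam against Tam and for *Zscan4c* and *Zscan4d* in DoxTam against WT. With a pseudocount of 0.1 FPKM, 2 were higher in DoxTam against WT, the added one being *Arg2* (0.94). With a pseudocount of 5 FPKM, 0 were higher and 0 lower in Tam against WT and in DoxTam against Tam. With a filter at 5 FPKM, 2 of the 8 were measured in Tam against WT, with 0 higher and 0 lower, and 3 in DoxTam against Tam, with 1 higher (*Zscan4c*) and 0 lower. At 2-fold, 0 were higher or lower in any comparison. Rescaling to the same total moved the median log2 fold of all genes to 0.15 in Tam against WT and 0.32 in DoxTam against WT. It left 3 higher (*Eif1a*, 0.71, added) and 0 lower in Tam against WT. It gave 3 higher in DoxTam against WT, *Zscan4f* (0.62) and *Arg2* (0.74) being added. Less that shift, no added gene reaches 1.5-fold. In Tam against WT, *Zscan4c* (-0.64) and *Arg2* (0.79) are then still past it, while *Dux* (0.56) falls short. With the GC trend removed, 0 were higher in DoxTam against WT and 1 in DoxTam against Tam. With *Zscan4c*, *Zscan4d* and *Zscan4f* as 1 summed gene, 0 were lower in Tam against WT and 0 higher in DoxTam against Tam. Centring, no filter and rescaling without small RNA genes changed none of these counts. For the further genes of the state, the alternatives were added after seeing the data. Their 6 of 17 higher in DoxTam against Tam became 0 of 17 with a pseudocount of 5 FPKM and at 2-fold. With a filter at 5 FPKM the count was 2 of 3, beside 150 of all 8916 genes. A pseudocount of 0.1 FPKM gave 7 of 17, beside 469 of 12647 genes. Rescaling to the same total gave 9 of 19, beside 782 of 12988 genes. Their 1 of 17 higher in DoxTam against WT became 5 of 17 with a pseudocount of 0.1 FPKM, beside 857 of all 12384 genes. When rescaled to one total the count was 4 of 20, beside 2784 of 12643 genes. At 2-fold and with a pseudocount of 5 FPKM it was 0 of 17. Their 2 of 16 lower in Tam against WT became 5 of 16 with a pseudocount of 0.1 FPKM, beside 757 of all 12705 genes. Centring gave 3 of 16, beside 517 of 12705 genes. A pseudocount of 5 FPKM and the 2-fold line each gave 1 of 16. With a filter at 5 FPKM only 1 was measured, and it was lower. The median log2 fold of the further genes in DoxTam against Tam stayed between 0.041 and 0.64. The GC check is void for them, since 30 of the 45 with a row, and 9 of the 18 at 1 FPKM or more, have a GC value, under the 80% required.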
